A study of Rattus norvegicus with 12 samples.

Results

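MAP kinase phosphatases, Sprouty proteins and mRNA decay factors form a feedback layer of cell signalling, and 10 of their genes were followed here in the colon and hippocampus of rats. The genes are Dusp1, Dusp4, Dusp5, Dusp6, Spry2, Zfp36, Zfp36l1, Btg2, Ier2 and Ier3. They were taken by symbol from the tables of both tissues, which listed 9 of them among 14803 colon and 14266 hippocampus genes. The expression of Ier2 was not analysed here. RNA was sequenced from 4 groups of 3 libraries each, named after the tissue and the treatment in the labels. These were the colon of rats with hypoxic ischemic brain damage (HIBD, called HI) and the colon of sham rats, and the hippocampus of HI rats and of sham rats. The title of the series places the injury in newborn rats and concerns lipopolysaccharide from gut bacteria acting through TLR4. The age, strain and sex of the animals, the time after injury and any pooling of animals are not stated in the labels. Values are FPKM, a read measure corrected for transcript length and for the size of the library, so levels of different genes in a library can be set side by side per length.

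A growth factor or a stress signal activates a chain of kinases that ends in the MAP kinases ERK, JNK and p38. The activated kinases switch on immediate early genes, and some of these code for proteins that end the signal. Dual-specificity phosphatases (Dusp genes) remove the activating phosphates from MAP kinases, Sprouty proteins act upstream at the level of receptors and Ras, and tristetraprolin (Zfp36) and its relatives bind AU-rich elements in short-lived mRNAs and bring in the CCR4-NOT deadenylase. In the intestine such genes respond to inflammatory and epithelial growth signals, and in the hippocampus several of them respond to neuronal activity.

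Promoter sequence is shown for 4 of the genes because their mRNAs were among those with the smallest p-values in one tissue or the other, and because 2 motifs known from immediate early genes lie in them. The windows hold the 250 bases before the annotated start in the RefSeq annotation of the rat assembly GRCr8, written 5′ to 3′ on the strand of the gene. RefSeq windows were found for 8 of the 10 genes. Capitals mark the cyclic AMP response element TGACGTCA in Dusp1 (chr10:17184603-17184852, + strand) and Btg2 (chr13:48087691-48087940, - strand), and the CArG box, the site of serum response factor, in Zfp36 (chr1:92799109-92799358, - strand) and Dusp5 (chr1:262543524-262543773, + strand).
Dusp1: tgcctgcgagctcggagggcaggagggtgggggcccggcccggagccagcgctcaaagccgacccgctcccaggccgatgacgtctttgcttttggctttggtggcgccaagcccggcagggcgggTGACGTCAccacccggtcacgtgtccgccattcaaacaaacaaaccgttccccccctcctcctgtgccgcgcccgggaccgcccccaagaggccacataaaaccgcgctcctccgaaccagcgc
Btg2: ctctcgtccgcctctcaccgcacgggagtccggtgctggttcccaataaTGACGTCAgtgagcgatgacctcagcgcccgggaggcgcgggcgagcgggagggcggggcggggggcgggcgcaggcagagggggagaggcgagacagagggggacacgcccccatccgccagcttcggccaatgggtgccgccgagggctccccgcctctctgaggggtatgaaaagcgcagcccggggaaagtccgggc
Zfp36: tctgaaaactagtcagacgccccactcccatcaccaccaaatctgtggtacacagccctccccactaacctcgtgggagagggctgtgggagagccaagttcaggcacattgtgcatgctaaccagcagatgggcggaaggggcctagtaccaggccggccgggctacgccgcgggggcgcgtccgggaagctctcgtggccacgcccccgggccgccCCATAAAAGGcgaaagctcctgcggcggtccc
Dusp5: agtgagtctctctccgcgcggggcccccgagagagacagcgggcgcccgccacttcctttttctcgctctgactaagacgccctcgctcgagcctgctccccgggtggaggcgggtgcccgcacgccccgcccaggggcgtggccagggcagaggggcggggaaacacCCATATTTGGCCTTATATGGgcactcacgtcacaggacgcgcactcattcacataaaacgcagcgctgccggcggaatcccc
The element TGACGTCA began 124 bases before the start of Dusp1 and 201 bases before that of Btg2. The match to the CArG box began 32 bases before the start of Zfp36. Over all windows TATAAA most often began 30 bases before the start, on both strands. The A/T-rich letters of the Zfp36 match thus lie where a TATA box is usual, and which role they have was not tested. In Dusp5 a pair of CArG boxes stood end to end, beginning 82 and 72 bases before the start. Both strands of a window from 250 bases before each start to 50 bases after it were searched. TGACGTCA was also found in Ier2 and stood in 1.83% of all 33469 windows of that length, and the CArG box stood in 1.64%. The pattern TGANTCA, a loose form of the AP-1 motif in which N is any base, stood in 7.33% of all windows. Of the 8 it was found in Zfp36l1 alone, as TGATTCA. The ETS motif CCGGAAG and the NF-κB motif GGGANTTCC were in none of the 8 windows, against 8.75% and 1.64% of all windows. No window of the 8 held 2 different motifs of these 5. Dusp6, whose mRNA had an unadjusted p under 0.05 by limma in both tissues, held none of the 5, and its window is not shown. The windows shown were chosen partly for their motifs, so they cannot tell whether motifs and differences go together. A match describes letters and is no measurement of binding.

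Some facts of the libraries bear on every comparison. The colon header named 2 sham columns alike, and these are called sham 3a and sham 3b. Sequencing depth is unknown. The labels do not say whether the libraries of a group are separate animals. The p-values therefore reflect only the variation among these libraries, an unknown part of which may be technical. Genes of the Y chromosome summed to 59.6 to 77.0 FPKM in the HI colon, and in the sham colon to 0.267 FPKM in sham 1 and to 74.0 and 70.4 FPKM in sham 3a and 3b. In the hippocampus they summed to 53.9 FPKM in HI 1 and to at most 0.133 FPKM in the other 5 libraries. Within the sham colon, and within the HI hippocampus, the libraries therefore cannot all come from the same animal or pool. The tissue labels held: the 6 epithelial markers summed to 1850 to 2570 FPKM in the HI colon and 2000 to 2660 FPKM in the sham colon, and the 7 neuronal markers to 1610 to 1690 FPKM in the HI hippocampus and 1700 to 1760 FPKM in the sham hippocampus. In bulk tissue, fewer cells of a type and less RNA per cell cannot be told apart.

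The tissues held the 9 genes at different levels, which is a description only, because each tissue has a deposited table of its own and a shared scale is not stated. In the HI colon the order by mean FPKM was Zfp36l1, Btg2, Zfp36, Spry2, Dusp1, Ier3, Dusp6, Dusp5 and Dusp4, from 95.4 ± 11.4 to 1.56 ± 0.178 FPKM. In the sham colon it was Zfp36l1, Btg2, Spry2, Zfp36, Ier3, Dusp1, Dusp6, Dusp5 and Dusp4, from 97.6 ± 2.91 to 1.81 ± 0.421 FPKM (SD, n = 3 in each group throughout). Neighbours with overlapping ranges were Zfp36l1 and Btg2, Spry2 and Dusp1, and Dusp1 and Ier3 in the HI colon, and Spry2 and Zfp36, Ier3 and Dusp1, and Dusp1 and Dusp6 in the sham colon. The decay factors Zfp36l1 and Btg2 thus came highest in both colon groups. In the hippocampus Spry2 came highest, at 38.7 ± 4.10 FPKM in HI and 35.3 ± 2.52 FPKM in sham, and was followed by Dusp6, Zfp36l1, Dusp4, Dusp1, Btg2 and Dusp5 in both groups. Zfp36 and Ier3, the lowest pair there, overlapped in both groups, and Dusp6 overlapped with Zfp36l1 in sham. Dusp4 stood at 14.8 ± 1.17 FPKM in the HI hippocampus and 13.2 ± 0.191 FPKM in the sham hippocampus, in contrast to its place at the bottom of the colon.

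**Figure D1:**
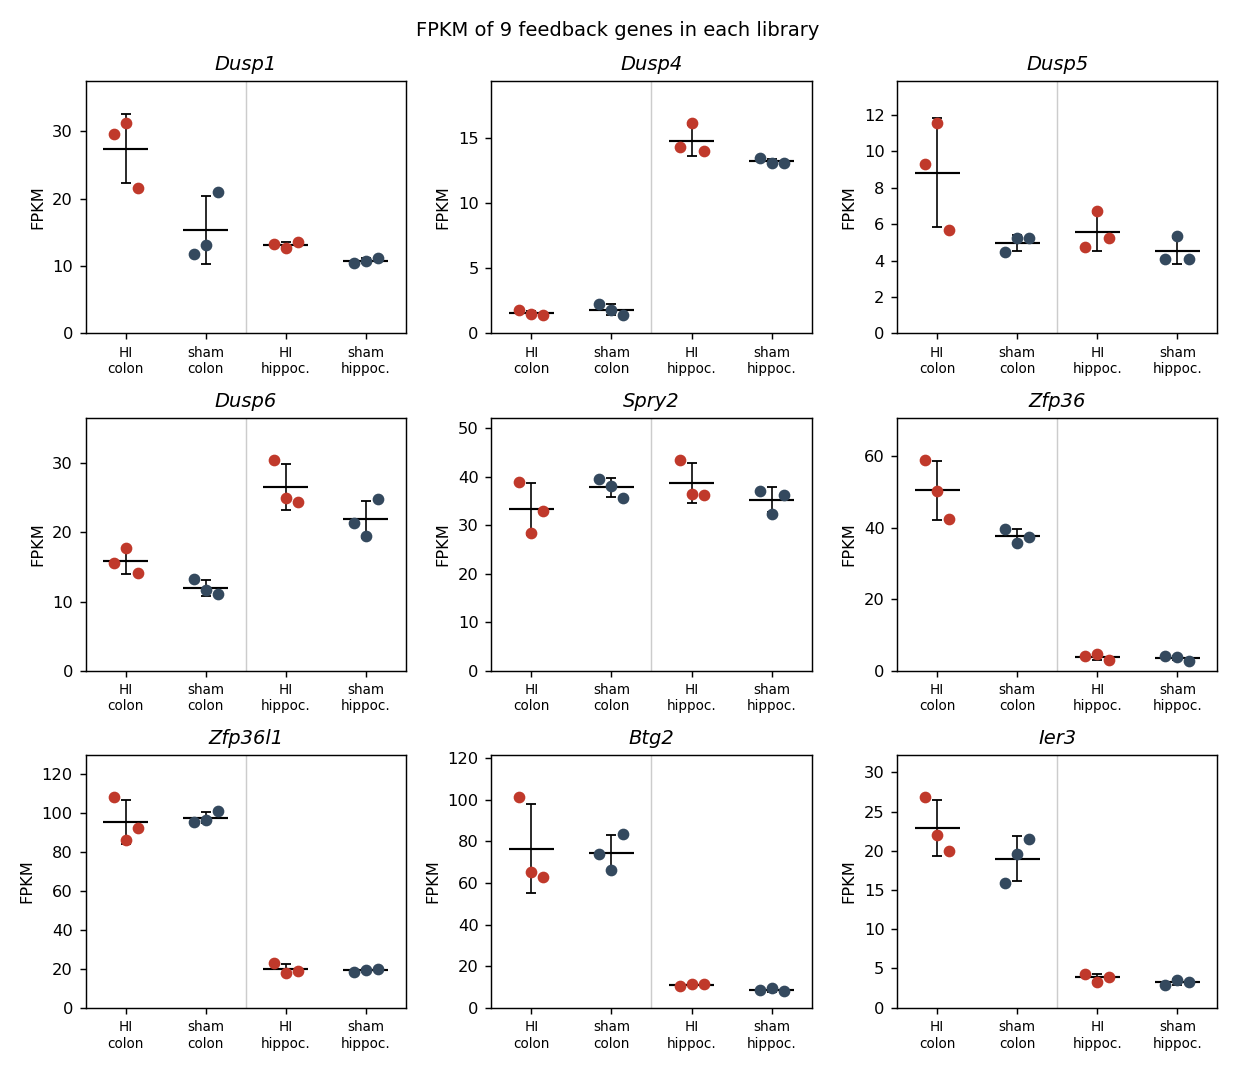
FPKM of the 9 listed genes in each of the 12 libraries (points: libraries, line and bar: mean and SD of 3, axes from 0; red HI, dark sham). Zfp36, Zfp36l1, Btg2 and Ier3 stood higher in the colon and Dusp4 in the hippocampus, and every HI library lay above every sham library for Dusp1 in both tissues.

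In the colon, HI was compared with sham to see whether the feedback genes differ in the gut after a brain injury. Of the 9 genes 6 had higher means in HI, with a median log2 difference of 0.26, where the median over all 13753 genes tested was -0.04 and 40.9% of all genes were higher. None passed limma's test adjusted over all genes, which called 0.0436% of genes. At an unadjusted p under 0.05, 4 were higher in HI and 0 lower, where 4.6% of all genes were higher and 6.55% lower, 11.1% in all. The 4 were Dusp1, Dusp5, Dusp6 and Zfp36. For these 4 every HI library lay above every sham library, which 5.63% of all genes showed, and 0 of the 9 lay below in every HI library, as 10.3% of all genes did. Without HI 1 or without sham 1 the median of the 9 genes was 0.14, and the number at an unadjusted p under 0.05 and higher was between 3 and 4 whichever library was left out. Of the 9, 5 to 7 were higher in these fits. Without HI 1, Spry2 was lower at that level, at -0.30.

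Among the phosphatases, Dusp1 codes for a nuclear enzyme that inactivates p38, JNK and ERK (chromosome 10, 16970626 to 16973418, + strand, in the coordinates of the deposited tables, which name no genome build). It stood at 29.5, 31.2 and 21.5 FPKM in HI 1, 2 and 3, against 11.8, 13.1 and 21.0 FPKM in sham 1, 3a and 3b. The groups did not overlap, but HI 3 and sham 3b lay almost at the same level. The log2 difference was 0.82 ± 0.23 (SE; 95% interval 0.29 to 1.35; limma adjusted p = 0.357). Without sham 3b it was 1.06 (limma adjusted p = 0.0681), the nearest that any of the 9 came to the threshold in any setting.

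Dusp5 codes for a nuclear phosphatase that acts on ERK (chromosome 1, 274245184 to 274258595, + strand). It stood at 9.29, 11.5 and 5.67 FPKM in the HI colon, against 4.48, 5.22 and 5.26 FPKM in the sham colon. HI 1 and HI 2 were high, and HI 3 was barely above the sham libraries. The log2 difference was 0.67 ± 0.22 (SE; 95% interval 0.15 to 1.19; limma adjusted p = 0.397). Dusp6, the cytoplasmic phosphatase of ERK (chromosome 7, 41475163 to 41479392, + strand), stood at 15.6, 17.8 and 14.2 FPKM in HI, against 13.2, 11.7 and 11.0 FPKM in sham. The gap between the lowest HI and the highest sham library was small, and the log2 difference was 0.37 ± 0.11 (SE; limma adjusted p = 0.364).

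Dusp4, another nuclear MAP kinase phosphatase (chromosome 16, 61078175 to 61091169, - strand), was barely expressed in the colon, at 1.77, 1.46 and 1.45 FPKM in HI and 2.24, 1.78 and 1.40 FPKM in sham. The groups overlapped, with a log2 difference of -0.13 ± 0.15 (SE; 95% interval -0.48 to 0.23), or -0.02 without sham 1 and -0.23 without sham 3b. Spry2, the inhibitor of receptor tyrosine kinase signalling (chromosome 15, 90172975 to 90175802, - strand), stood at 39.0, 28.3 and 32.9 FPKM in HI and 39.6, 38.2 and 35.7 FPKM in sham. HI 2 and HI 3 were below the sham libraries and HI 1 within them. Its log2 difference was -0.18 ± 0.12 (SE; 95% interval -0.46 to 0.09), or -0.30 without HI 1 and -0.07 without HI 2. Dusp6, like Spry2 known as an output gene of ERK, deviated above the sham mean in HI 2 and HI 3, where Spry2 was below it, and in HI 1 both were above it.

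Of the decay factors, Zfp36 (tristetraprolin; chromosome 1, 85380088 to 85382569, + strand in the tables and - strand in GRCr8) stood at 58.9, 50.4 and 42.4 FPKM in the HI colon, against 39.8, 35.7 and 37.5 FPKM in the sham colon. All 3 HI libraries lay above all 3 sham libraries, and the sham libraries were close to each other. The log2 difference was 0.41 ± 0.12 (SE; 95% interval 0.12 to 0.69; limma adjusted p = 0.364). Its paralog Zfp36l1 (chromosome 6, 103308045 to 103313074, - strand) stood at 108, 86.0 and 92.2 FPKM in HI and 95.3, 96.6 and 101 FPKM in sham. Those groups overlapped, and the difference was -0.04 ± 0.09 (SE; 95% interval -0.26 to 0.18).

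Btg2, an antiproliferative protein that binds and stimulates the CCR4-NOT deadenylase (chromosome 13, 50913180 to 50916982, - strand), stood at 101, 65.1 and 63.0 FPKM in the HI colon and 73.8, 66.4 and 83.4 FPKM in the sham colon. HI 1 was the highest of the 6 libraries and HI 2 and HI 3 the lowest, so the difference of 0.01 ± 0.19 (SE; 95% interval -0.43 to 0.44) averaged opposite deviations. It was -0.21 without HI 1 and -0.07 without sham 3a. Ier3, a small stress-inducible protein known from human cells as a partner and substrate of ERK (chromosome 20, 3438798 to 3440769, - strand), stood at 26.8, 22.0 and 19.9 FPKM in HI and 15.9, 19.6 and 21.5 FPKM in sham. The groups overlapped, and the difference was 0.26 ± 0.14 (SE; 95% interval -0.08 to 0.60), or 0.14 without HI 1 or without sham 1.

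**Figure D2:**
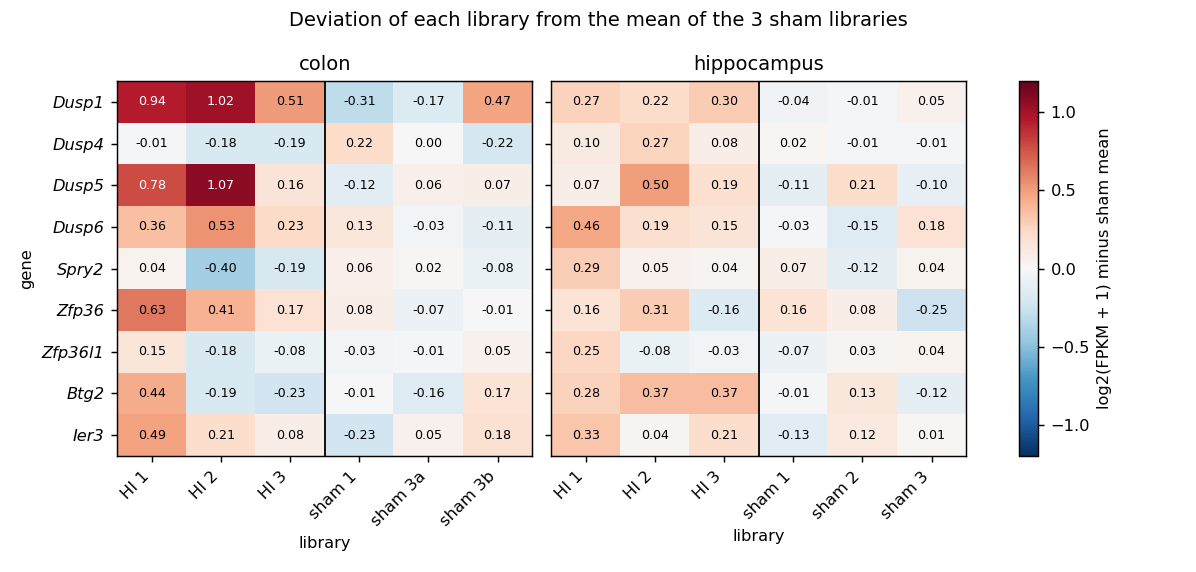
Deviation of each library from the mean of the 3 sham libraries of its tissue, in log2(FPKM + 1), for each of the 9 genes (rows) and 6 libraries per tissue (columns, HI left of the line). Colon HI 1 and HI 2 carried the highest deviations of Dusp1 and Dusp5, at 0.94 and 1.02 and at 0.78 and 1.07, colon sham 3b was at 0.47 for Dusp1, and the hippocampus deviations were smaller.

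The deviations were uneven over the HI colon libraries. Averaged over the 9 genes, they were 0.43 in HI 1, 0.26 in HI 2 and 0.05 in HI 3, against -0.02, -0.04 and 0.06 in sham 1, 3a and 3b. HI 3 thus lay within the range of the sham libraries on this average. Colon libraries were also unlike in their Hox genes, transcription factor genes whose groups mark positions along the gut. A Hox axis score was formed by subtracting the mean log2 level of the 21 genes of groups 2 to 9 from that of the 3 listed genes of group 13. It was -0.75, 1.58 and 2.03 in HI 1, 2 and 3, against -2.21, -2.71 and 0.30 in sham 1, 3a and 3b. Sham 3b, the sham library with the highest Dusp1, also had the highest score of its group. With the score as a covariate the HI differences were 0.60 for Dusp1, 0.76 for Dusp5, 0.45 for Dusp6 and 0.56 for Zfp36, none of which passed (limma adjusted p from 0.867 to 0.998). With it all 9 genes had differences above 0, and Dusp4, Spry2 and Zfp36l1 stood at 0.090, 0.0084 and 0.045. The part of gut position in the differences was not tested further. Without sham 1, the library with little Y chromosome RNA, the differences were 0.67 for Dusp1, 0.61 for Dusp5, 0.44 for Dusp6 and 0.45 for Zfp36. Among other cells, the 2 listed neutrophil markers of 3 summed to 5.72 to 11.5 FPKM in the HI colon and 2.79 to 7.73 FPKM in the sham colon, the 5 smooth muscle markers to 4550 to 5580 FPKM in HI and 4220 to 5170 FPKM in sham, and the 5 listed immune cell markers of 6 to 54.9 to 68.8 FPKM in HI and 46.7 to 76.8 FPKM in sham. Their part in the differences was not tested.

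**Figure D3:**
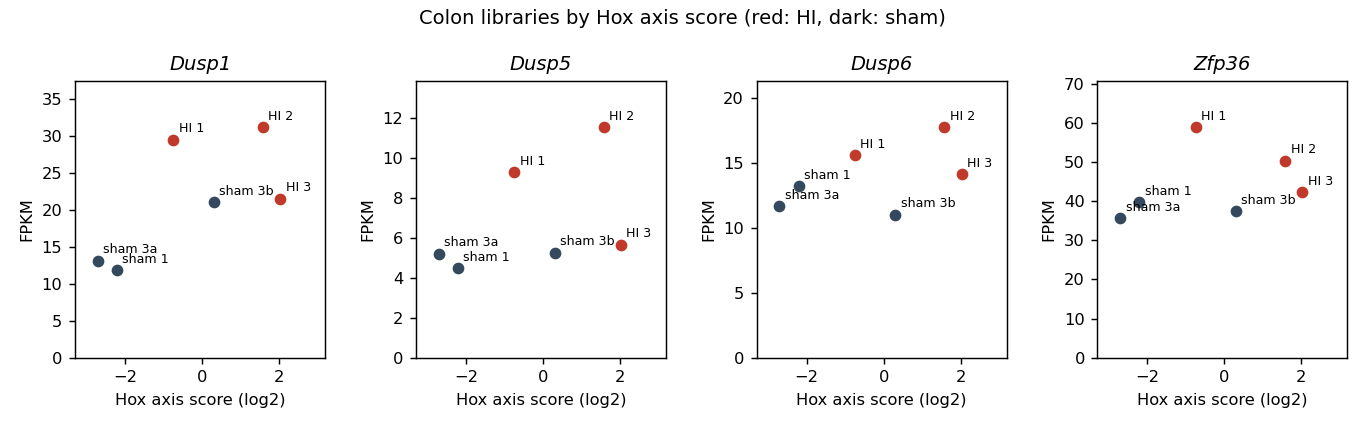
FPKM of Dusp1, Dusp5, Dusp6 and Zfp36 (y axes, from 0) against the Hox axis score (x axes, log2 units) in the 6 colon libraries. Sham 1 and 3a lay at low scores with 11.8 and 13.1 FPKM of Dusp1, sham 3b at a score of 0.30 with 21.0 FPKM, and HI 1, at -0.75, had 29.5 FPKM of Dusp1 and the highest Zfp36.

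In the hippocampus all 9 genes had higher means in HI, with a median log2 difference of 0.19, where the median over all 13181 genes tested was -0.0015 and 49.5% of all genes were higher. The differences were small, from 0.05 to 0.34, and none passed limma's test adjusted over all genes, which called 0.00759% of genes. At an unadjusted p under 0.05, 3 of the 9 were higher, Btg2, Dusp1 and Dusp6, and 0 were lower, where 3.45% of all genes were higher and 3.16% lower, 6.62% in all. Every HI library lay above every sham library for Dusp1, Dusp4 and Btg2, as for 6.4% of all genes, and below for 0 of the 9, against 6.81% of all genes. The median of the 9 was between 0.17 and 0.23 whichever library was left out, with 8 or 9 genes higher. The number at an unadjusted p under 0.05 and higher was 2 without sham 1 and 3 without any other single library.

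Btg2 had the largest difference of the 9 there. It stood at 10.6, 11.4 and 11.4 FPKM in HI 1, 2 and 3, against 8.51, 9.54 and 7.82 FPKM in sham 1, 2 and 3. All HI libraries lay close together and above the sham libraries, and the log2 difference was 0.34 ± 0.09 (SE; 95% interval 0.14 to 0.54; limma adjusted p = 0.666). Dusp1 stood at 13.2, 12.7 and 13.5 FPKM in HI, against 10.4, 10.7 and 11.2 FPKM in sham. The spread within each group was far narrower than in the colon, with SDs of 0.392 FPKM in HI and 0.404 FPKM in sham. The log2 difference was 0.27 ± 0.07 (SE; 95% interval 0.11 to 0.42; limma adjusted p = 0.666), and between 0.24 and 0.29 whichever library was left out. By unadjusted p, Btg2 and Dusp1 were at places 77 and 79 among the 13181 genes.

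Dusp4 stood at 14.3, 16.1 and 14.0 FPKM in the HI hippocampus, against 13.4, 13.1 and 13.1 FPKM in the sham hippocampus. The sham libraries were nearly equal and HI 2 stood apart above them, with a log2 difference of 0.15 ± 0.07 (SE; limma adjusted p = 0.757), or 0.09 without HI 2. Dusp6 stood at 30.5, 25.0 and 24.4 FPKM in HI and 21.4, 19.5 and 24.8 FPKM in sham. Sham 3 lay above HI 3, so the groups overlapped, and the difference was 0.27 ± 0.11 (SE; limma adjusted p = 0.734). Without HI 1 it was 0.17. Dusp5, at 4.75, 6.74 and 5.24 FPKM in HI and 4.07, 5.32 and 4.11 FPKM in sham, was highest in HI 2, and its difference was 0.25 ± 0.14 (SE; 95% interval -0.07 to 0.57), or 0.13 without HI 2. Spry2 differed by 0.13 ± 0.09 and Ier3 by 0.19 ± 0.12, with overlapping groups. Spry2 differed by 0.04 without HI 1 and by 0.07 without sham 2, and Ier3 by 0.12 without HI 1 and by 0.13 without sham 1. Zfp36, at 4.01, 4.54 and 3.01 FPKM in HI and 4.01, 3.75 and 2.78 FPKM in sham, differed by 0.10 ± 0.15, and Zfp36l1 by 0.05 ± 0.09 (SE each).

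**Figure D4:**
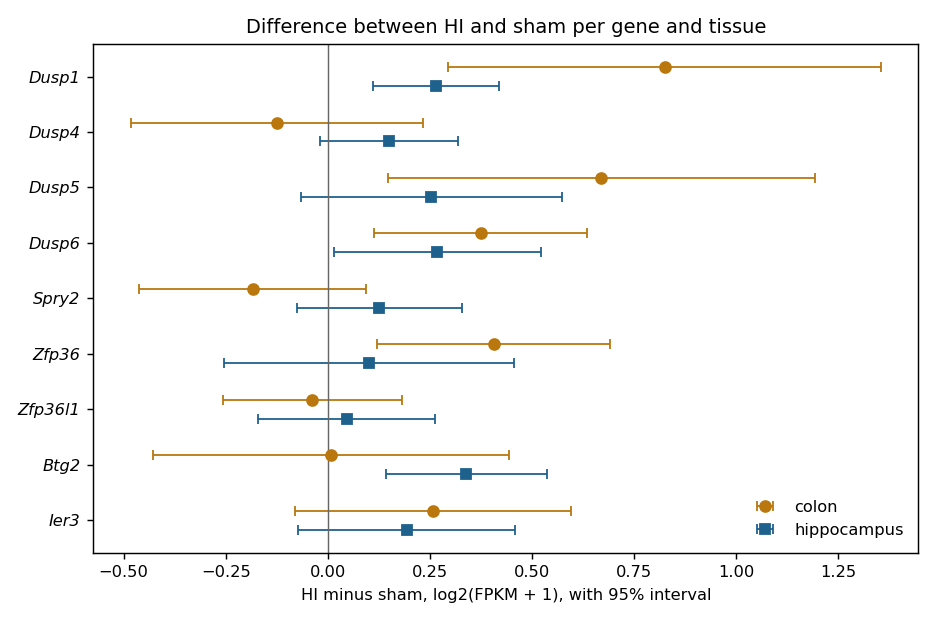
Difference between HI and sham in log2(FPKM + 1) for each gene, with its 95% interval from limma, in the colon (circles) and hippocampus (squares). The intervals of Dusp1, Dusp5, Dusp6 and Zfp36 in the colon and of Dusp1, Dusp6 and Btg2 in the hippocampus did not include 0 before adjustment, and none of the 9 genes passed after adjustment over all genes.

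Some marker sums of other cells did not overlap between the hippocampus groups, and others did. The 5 smooth muscle markers summed to 17.4 to 22.4 FPKM in HI and 31.4 to 61.6 FPKM in sham. The 3 choroid plexus markers summed to 4257 FPKM in HI 1 and to 15.3 and 21.1 FPKM in HI 2 and HI 3, against 1.59 to 9.46 FPKM in sham. The 2 listed neutrophil markers of 3 summed to 1.54 to 9.38 FPKM in HI and 0.359 to 1.41 FPKM in sham, highest in HI 2. The 6 oligodendrocyte markers overlapped, with sums of 1200 to 2440 FPKM in HI and 1090 to 1890 FPKM in sham. The 4 astrocyte markers also overlapped, at 455 to 567 FPKM in HI and 498 to 528 FPKM in sham. So did the 5 microglia markers, at 74.9 to 84.7 FPKM in HI and 77 to 83.6 FPKM in sham. None of the listed markers was at 0 in all libraries. Their part in the differences was not tested beyond the following values. Without HI 1, which had the choroid plexus RNA and the Y chromosome RNA, Btg2 differed by 0.37 and Dusp1 by 0.26. The mean log2 level of the oligodendrocyte markers (the myelin score) was also used as a covariate. With it Dusp1 differed by 0.23, Dusp6 by 0.16 ± 0.10 (SE), Spry2 by 0.07 and Ier3 by 0.12. Higher than without it were Btg2 at 0.40, Dusp5 at 0.40, Zfp36 at 0.25 and Dusp4 at 0.20.

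The difference between the colon and hippocampus responses was tested as an interaction over the 12 libraries, which compares changes within each table. Of 13011 genes 0.0154% were called, none of them among the 9 (limma adjusted p from 0.532 to 0.932), and 9.18% had an unadjusted p under 0.05. Of the 9 that held for Dusp1, with a colon difference 0.56 ± 0.25 above that of the hippocampus (SE; limma adjusted p = 0.532). The number of the 9 higher at that level was 0 with a pseudocount of 0.1 FPKM and in 10 of the 12 fits that left out 1 library, and without colon HI 1 there were 0 higher and 2 lower. Btg2 had the opposite sign, at -0.33 ± 0.22, with 0.01 in the colon and 0.34 in the hippocampus (limma adjusted p = 0.629). Zfp36 differed by 0.30 ± 0.21 and Spry2 by -0.31 ± 0.15 between the tissues (SE each). A response particular to one tissue was therefore not shown for any of the 9.

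Of the other MAP kinase phosphatases, none passed. Of the 6 further genes (Dusp2, Dusp7, Dusp8, Dusp9, Dusp10 and Dusp16), 5 were tested in the colon, 3 higher and 2 lower in HI, with a median of 0.11, and 6 in the hippocampus, all higher, with a median of 0.10. None had an unadjusted p under 0.05. In the hippocampus Dusp10, which acts on JNK and p38, stood at 2.12 ± 0.179 FPKM in HI and 1.64 ± 0.155 FPKM in sham. Dusp7, an ERK phosphatase, stood at 30.2 ± 1.60 FPKM in HI and 27.7 ± 0.759 FPKM in sham there, and at 9.44 ± 1.12 FPKM in HI and 8.61 ± 0.453 FPKM in sham in the colon.

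Sprouty and Spred genes showed no common direction. In the colon 2 of 5 were higher in HI, with a median of -0.04, and in the hippocampus 5 of 6, with a median of 0.05. None passed over all genes, and Spred3 in the colon (lower) and Spry4 in the hippocampus (higher) had an unadjusted p under 0.05. Of all genes, 6.55% were lower at that level in the colon and 3.45% higher in the hippocampus. Spry4 stood at 6.80 ± 0.298 FPKM in the HI hippocampus and 5.61 ± 0.701 FPKM in the sham hippocampus, and at 4.60 ± 0.319 FPKM in the HI colon and 5.17 ± 0.441 FPKM in the sham colon. Spred3 stood at 1.10 ± 0.135 FPKM in the HI colon and 1.70 ± 0.329 FPKM in the sham colon.

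Further feedback and output genes of ERK included Errfi1, whose product binds the EGF receptor and blocks its kinase. In the colon 6 of 10 were higher, with a median of 0.12 and 3 at an unadjusted p under 0.05, a level that 4.6% of all genes reached as higher. In the hippocampus 3 of 8 were higher, with a median of -0.01 and 1 higher and 1 lower at that level, which 3.45% and 3.16% of all genes reached. None passed over all genes. Errfi1 stood at 47.5, 48.8 and 46.4 FPKM in the HI colon, against 30.6, 30.3 and 37.7 FPKM in the sham colon (difference 0.53 ± 0.10, SE; limma adjusted p = 0.204). It stood at 16.1, 17.3 and 16.8 FPKM in the HI hippocampus, against 14.1, 14.2 and 14.1 FPKM in the sham hippocampus (0.23 ± 0.06, SE; limma adjusted p = 0.672). The groups did not overlap in either tissue. Ccnd1, the cyclin of the G1 phase, was higher by 0.22 ± 0.07 in the HI colon and lower in the HI hippocampus, at -0.20 ± 0.08 (SE each), without passing in either.

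Further genes of the decay machinery around Zfp36 and Btg2 were counted in the same way. Of 15 BTG/TOB and CCR4-NOT genes, 6 were higher in the HI colon (median -0.02) and 11 in the HI hippocampus (median 0.06), with 1 higher at an unadjusted p under 0.05 in each and none past the adjusted threshold. Of all genes, 4.6% were higher at that level in the colon, as were 3.45% in the hippocampus. In the colon that gene was Tob1, an antiproliferative relative of Btg2, at 58.4 ± 7.36 FPKM in HI and 45.9 ± 6.35 FPKM in sham. In the hippocampus it was Btg3, at 22.7 ± 0.549 FPKM in HI and 19.4 ± 0.999 FPKM in sham. Of the genes for other AU-rich element binding proteins and decay enzymes, 2 of 9 were higher in the HI colon (median -0.02) and 6 of 9 in the HI hippocampus (median 0.08). Only Hnrnpd in the colon, lower in HI, reached an unadjusted p under 0.05, where 6.55% of all genes were lower. It codes for the AU-rich element binding protein AUF1 and stood at 119 ± 9.83 FPKM in HI and 145 ± 14.7 FPKM in sham, and none passed over all genes.

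Of 11 mRNAs known as targets of tristetraprolin, the colon table listed 6, of which 4 passed the filter and 3 of these were higher in HI (median 0.40). The hippocampus table listed 2, both tested and both higher (median 0.40). The others were not analysed here. Ptgs2, the inducible cyclooxygenase, stood at 14.9, 10.6 and 13.6 FPKM in the HI hippocampus, against 10.2, 8.55 and 10.2 FPKM in the sham hippocampus, a difference of 0.39 ± 0.13 (SE; limma adjusted p = 0.716) and the one of the list at an unadjusted p under 0.05. In the colon it stood at 4.64, 5.54 and 3.57 FPKM in HI, against 2.54, 2.61 and 4.17 FPKM in sham, a difference of 0.45 ± 0.20 (SE; limma adjusted p = 0.451). HI libraries lay above all sham libraries in the hippocampus, as for 6.4% of all genes, and overlapped with sham 3b in the colon. Of all genes, 3.45% were higher in the HI hippocampus at an unadjusted p under 0.05. Vegfa differed by 0.53 ± 0.24 in the colon and by 0.42 ± 0.24 in the hippocampus, with overlapping groups (SE each).

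The kinases upstream had no common direction. Of 28 genes of the MAP kinase cascade, 14 were higher and 14 lower in the HI colon (median -0.0010), and 11 were higher and 16 lower in the HI hippocampus (median -0.03). None passed over all genes. Hras, a Ras gene, stood at 38.2 ± 1.13 FPKM in the HI colon and 32.9 ± 1.70 FPKM in the sham colon. Map2k2, a kinase that activates ERK, stood at 43.3 ± 1.84 FPKM in the HI hippocampus and 47.8 ± 1.84 FPKM in the sham hippocampus, at an unadjusted p under 0.05 as for Hras in the colon. At that level 4.6% of all genes were higher in the HI colon and 3.16% lower in the HI hippocampus.

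**Figure D5:**
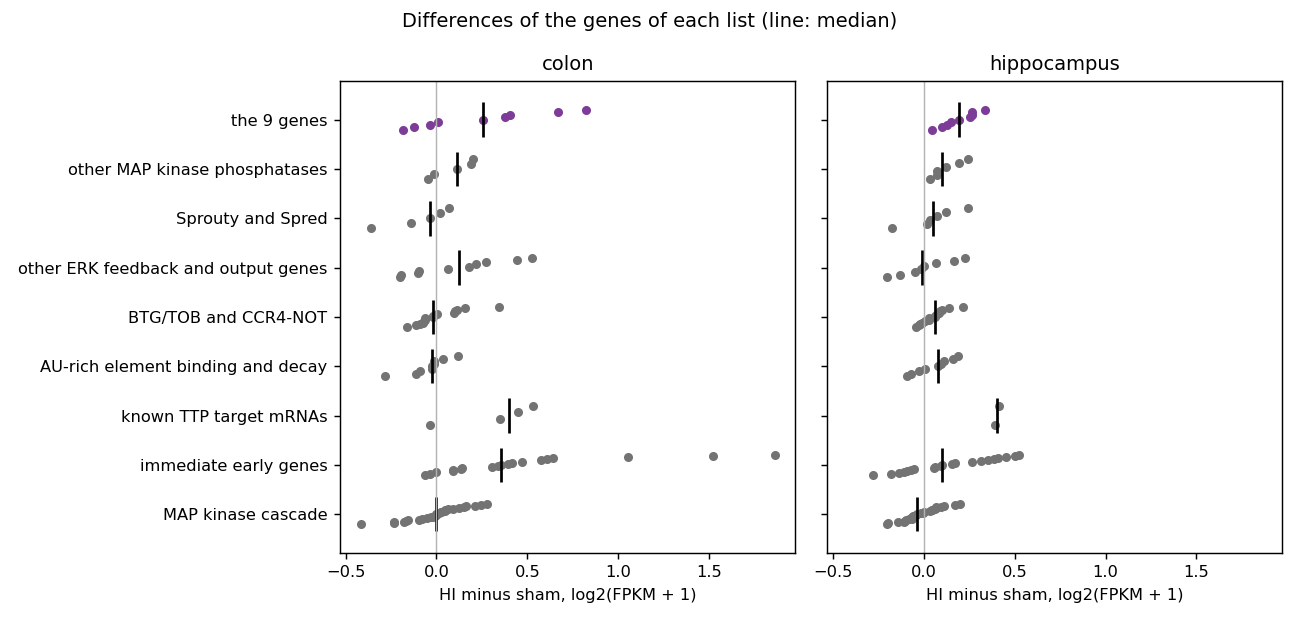
Difference between HI and sham in log2(FPKM + 1) of each tested gene (points) and the median (line) for the 9 genes and for 8 further gene lists, in the colon and hippocampus. The 9 genes had medians of 0.26 and 0.19, the MAP kinase cascade was centred near 0 in both tissues, and the colon immediate early genes reached 1.86.

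Among the genes whose levels ran most like those of Dusp1 over the 6 colon libraries were Ppp1r16a (Pearson r = 0.995 of log2 levels), Hnf4a (0.994), Kmt2c (0.993) and Abhd17c (0.992). Over the 6 hippocampus libraries they were Ythdf3 (r = 0.999), Slc2a1 (0.993), Sun2 (0.989), Dennd6a (0.979) and Sult1a1 (0.978). For Zfp36 they were Tdrd7 (0.988), Ms4a6e (0.985), Oas1a (0.970), Plk3 (0.969) and Clock (0.969) in the colon, and Ddx51 (0.997), Dusp8 (0.997), Tbc1d30 (0.988), XAF1 (0.985) and Speg (0.979) in the hippocampus. These are among the highest values of all genes tested in 6 libraries that share their groups, and they are descriptions. Among the 9 genes, Dusp1 ran with Dusp5 (r = 0.872), Ier3 (0.839) and Zfp36 (0.791) in the colon and with Btg2 (0.815) in the hippocampus, while Dusp1 and Zfp36 had an r of 0.010 there.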

How the data were processed

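The deposited tables, 1 per tissue, gave FPKM per library, as the authors computed them, per the file headers. No aligner, quantifier, genome build or annotation is named in the labels or headers used here. Per the labels' protocols, RNA was extracted with TRIzol and mRNA libraries were amplified by PCR. All rows entered the fits. A symbol shared by several identifiers was read from the row with the highest mean FPKM. limma 3.58.1 in R 4.3.3, with eBayes and a mean-variance trend, was run on log2(FPKM + 1) of genes reaching 1 FPKM in 3 or more libraries, over the 6 libraries of a tissue, or all 12 for the interaction. Benjamini-Hochberg adjustment ran over all genes tested, and an adjusted p under 0.05 passed. The added 1 FPKM shrinks the log2 differences of low genes. FPKM are relative to the total, and the depth is unknown, so no counting interval is given. The code was tested on simulated data. The 9 genes, the related lists and the covariates were chosen with earlier results of these data known. Of each related list, up to 3 genes with the smallest p per tissue were named, and for likeness to Dusp1 and Zfp36 the 5 genes with the highest r, provisional names left out. A few genes that these rules name are not reported here. Alternatives were another pseudocount (0.1 FPKM), no filter, median-ratio scaling, leaving out each library, 1 fit over 12 libraries, a replicate block, and a Hox axis or myelin score as covariate.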

Additional observations from a re-analysis of the deposited data

Results flagged for a closer look

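Dusp4 stood out because all 3 HI libraries lay below the sham mean in the colon and all 3 above it in the hippocampus. The colon difference minus the hippocampus difference was -0.28 ± 0.16 on the log2 scale (SE), which did not pass the interaction test (limma adjusted p = 0.598), and -0.17 without colon sham 1. The colon values are low, at 1.45 to 1.77 FPKM in HI and 1.40 to 2.24 FPKM in sham, and the deviation of HI 1 from the sham mean was -0.01 on the log2 scale.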

How the results depend on the processing

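None of the 9 genes passed in either tissue or in the interaction under any alternative that was run. With 1 library left out, the number of genes called was 2 to 38 in the colon (6 with all libraries), 0 to 5 in the hippocampus (1) and 1 to 22 for the interaction (2). The colon count was 13 without HI 1, 3 without HI 2, 2 without HI 3, 3 without sham 1, 3 without sham 3a and 38 without sham 3b. It was 21 in 1 fit over 12 libraries and 1 with the Hox axis score. The hippocampus count was 0 with a pseudocount of 0.1 FPKM and 0 with the myelin score, and the interaction count was 1 with that pseudocount and 1 with median-ratio scaling. With 1 library left out, the sign turned for Btg2 in the colon (-0.21 to 0.13), Zfp36l1 in the colon (-0.13 to 0.033) and hippocampus (-0.056 to 0.11), Zfp36 in the hippocampus (-0.021 to 0.23), and the interaction of Ier3 (-0.051 to 0.16) and Zfp36l1 (-0.18 to 0.018). It turned for Zfp36l1 with median-ratio scaling (0.0029) and the myelin score (-0.032), and for Dusp4, Spry2 and Zfp36l1 with the Hox axis score (0.090, 0.0084 and 0.045). The cause was not tested. In the hippocampus the replicate block left 0 genes called. With the block 4 of the 9 genes were higher at an unadjusted p under 0.05, against 3 without it. Same-numbered libraries had correlations of deviations of -0.05, 0.08 and -0.03, and HI 1 correlated best with sham 3 (0.14). With 3 libraries per group such small correlations cannot settle whether the numbers pair the libraries. No paired analysis was possible in the colon or for the interaction because 2 colon columns carry no number of their own. Across tissues, HI 2 and HI 3 were not the same animals under the same number. Their Y chromosome genes summed to 63.7 and 59.6 FPKM in the colon, and to 0.0733 and 0.0416 FPKM in the hippocampus. HI 1 had Y chromosome RNA in both tissues. The unknown depth limits the genes near the filter, of which Dusp4 in the colon is the lowest.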

Other observations

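Immediate early genes beyond the 9 were also measured in the colon. Of 19 tested, 16 were higher in HI, with a median log2 difference of 0.36 and 7 at an unadjusted p under 0.05, where 4.6% of all genes were higher at that level. None passed by limma over all genes. Atf3, a stress-induced transcription factor, stood at 8.53, 8.73 and 5.12 FPKM in HI, against 1.80, 1.40 and 2.58 FPKM in sham (1.52 ± 0.22, SE; limma adjusted p = 0.152). Klf4, a transcription factor of differentiated epithelium, stood at 178, 241 and 217 FPKM in HI, against 81.3, 81.4 and 155 FPKM in sham. Fos, an AP-1 subunit, stood at 29.0, 46.9 and 26.1 FPKM in HI, against 6.05, 4.92 and 18.6 FPKM in sham. In all 3 genes sham 3b was the highest sham library, as it was for Dusp1.

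In the hippocampus 14 of 21 immediate early genes were higher in HI (median 0.10), 7 of them at an unadjusted p under 0.05, where 3.45% of all genes were, and none passed over all genes. Egr1, an activity-regulated transcription factor, stood at 57.8, 50.7 and 47.7 FPKM in HI, against 37.8, 38.5 and 40.4 FPKM in sham (0.41 ± 0.08, SE; limma adjusted p = 0.599). Arc, a synaptic activity gene, stood at 49.5, 36.8 and 38.5 FPKM in HI, against 27.6, 27.3 and 31.9 FPKM in sham. Ctgf, a matrix-associated growth factor gene also called Ccn2, stood at 5.95, 7.95 and 8.36 FPKM in HI, against 4.60, 4.86 and 4.97 FPKM in sham. For these 3 genes, named by their smallest p, every HI library lay above every sham library. That held for 8 of the 21 and for 6.4% of all genes. For 2 of the 21, Klf2 and Klf4, every HI library lay below every sham library, as for 6.81% of all genes.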
